A study of Mus musculus with 10 samples.

Results

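The paternally methylated control regions of H19, Meg3 and Rasgrf1 were examined in 10 mouse leukaemia libraries of reduced representation bisulfite sequencing, an assay that reads methylation in MspI-cut, CpG-rich fragments. The members were the CpG cytosines listed with at least 5 reads inside fixed mm9 intervals: chr7:149760000-149772000 for H19, chr12:110762000-110782000 for Meg3 and chr9:89765000-89780000 for Rasgrf1. They numbered 46, with 19 at H19, 21 at Meg3 and 6 at Rasgrf1, and 23 of them reached 5 reads in all 10 libraries, out of 559685 such autosomal cytosines. The files list the cytosines of each strand apart, so a CpG can give a pair of values. The interval bounds were not set from measured levels.

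All libraries came from leukaemic mouse spleen, and the 4 groups were 3 MLL-AF9 libraries with the Dnmt3b knockin, 3 MLL-AF9 libraries labelled WT for it, 2 cMyc-Bcl2 libraries with the knockin and 2 cMyc-Bcl2 libraries labelled WT. The knockin is tetracycline-inducible per the series' text and raises Dnmt3b, a de novo DNA methyltransferase. MLL-AF9 is a fusion oncoprotein, and its libraries were made from c-kit+ cells. cMyc is a transcription factor and Bcl2 an inhibitor of cell death, and the labels give no c-kit gate for those leukaemias. The oncogene and the c-kit gate therefore cannot be told apart. The sources used here give neither strain, age nor inducer treatment. They also leave out the share of normal cells and whether replicates were separate animals, so a p-value reflects the spread among these libraries, which may be technical. Dnmt3b itself was not analysed here. Each library had 28 to 40 of the 46 cytosines at that depth, from 14446933 to 46762220 read calls in all. Coverage went with the model: cytosines with 5 reads numbered 1269159 to 1342547 in cMyc-Bcl2 libraries and 853577 to 1149497 in MLL-AF9 libraries. It therefore cannot be told apart from the oncogene either. Between 0.910 and 3.20% of mitochondrial CpG calls read as methylated, a guide to unconverted cytosines, and relative depth of chromosomes 7, 9 and 12 was 0.957 to 1.03. Mean methylation over the 559685 autosomal cytosines was 24.9% ± 0.810 in MLL-AF9 knockin and 22.6% ± 0.565 in MLL-AF9 WT (SD, n = 3 each), and 25.9% ± 0.759 in cMyc-Bcl2 knockin and 22.9% ± 0.455 in cMyc-Bcl2 WT (SD, n = 2 each).

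Most imprinted control regions are methylated on the maternal copy, and these loci are among the few in which sperm brings the methylation. At the H19 locus the unmethylated maternal copy binds CTCF, which separates Igf2 from its enhancers and leaves them to H19, a long non-coding RNA. At the Dlk1-Meg3 locus a methylated intergenic region on the paternal copy goes with a silent Meg3, another long non-coding RNA, and the Meg3 promoter is also methylated there. At Rasgrf1, a guanine nucleotide exchange factor for Ras, methylation on the paternal copy goes with its expression from that copy. Where 1 of the parental copies is fully methylated in every cell, the level is 50%. A level near 50% cannot be told apart from a mixture of cells or of reads, since parental copies were not distinguished.

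The Meg3 promoter, whose start lies inside the interval and could be tied to the deposited positions, is shown (RefSeq, GRCm38.p6, chr12:109540746-109541045, plus strand, from 250 bases before to 50 bases after the start). Capitals mark the 7 of its 13 CpGs that the files list.
Meg3: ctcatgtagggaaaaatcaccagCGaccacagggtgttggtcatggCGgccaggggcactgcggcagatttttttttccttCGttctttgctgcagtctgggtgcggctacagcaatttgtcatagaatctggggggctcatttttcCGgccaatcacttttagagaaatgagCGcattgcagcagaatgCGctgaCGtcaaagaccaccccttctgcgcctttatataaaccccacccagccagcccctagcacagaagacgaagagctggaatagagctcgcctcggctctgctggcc
The spacing of these 7 CpGs matched the mm9 positions at 1 of 219047 places searched in and around the interval. No other place matched more than 3, which puts the start at mm9 chr12:110779206. The Rasgrf1 promoter matched likewise, with 8 of 8 listed CpGs against 4 at the next best place, and puts that start at mm9 chr9:89804613. H19 has no entry in the promoter table used, so its cytosines are given by position only. No mm9 annotation was used, so exon, intron and the bounds of the control elements inside the intervals were not analysed here. The Meg3 promoter itself was too shallow for a level: no cytosine had more than 2 reads in 1 library, and 1 of 7 calls in cMyc-Bcl2 and 15 of 22 calls in MLL-AF9 libraries were methylated.

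Coverage was patchy, and it decided what could be compared. Cytosines with no gap over 500 bp were taken as a block, which gave 4 blocks at H19, 5 at Meg3 and 2 at Rasgrf1, and a block was tested where at least 3 cytosines had 5 reads in every library compared. Cytosines of a block lie on few fragments and share reads, so they are not independent. Of the 11 blocks, 4 could be compared over all 10 libraries: the second block of H19, 5 common cytosines at chr7:149764070-149764148, the Meg3 blocks 14.3 kb (8 cytosines, chr12:110764888-110764947) and 0.4 kb (4 cytosines, chr12:110778801-110778855) upstream of the start, and a Rasgrf1 block 35.2 kb upstream of that gene's start (4 cytosines, chr9:89769450-89769530). A Meg3 block 15.3 kb upstream (chr12:110763922-110764002) had 4 common cytosines in MLL-AF9 and 2 in cMyc-Bcl2. The first H19 block (chr7:149761700-149761918) was compared in cMyc-Bcl2 alone, where 3 cytosines were common. The third H19 block and the second Rasgrf1 block reached 5 reads only in cMyc-Bcl2 WT replicate 1, and the Meg3 block 11.2 kb upstream only in MLL-AF9 knockin replicate 3. Levels below are the mean over cytosines of the percent of reads methylated, each cytosine weighted once.

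At H19 most values lay at intermediate levels, and no knockin difference passed a test in the blocks that could be tested. The fourth block was not tested. There the mean of 2 cytosines was higher in cMyc-Bcl2 knockin than in WT libraries without overlap, but these cytosines went opposite ways, as given below. By pooled reads, 23.5% of the 71497 windows of that model were also higher in knockin without overlap. Of 108 values of single cytosines with 5 reads, 70 lay between 25 and 75%, with 24 of 30 in MLL-AF9 knockin, 18 of 24 in MLL-AF9 WT, 11 of 27 in cMyc-Bcl2 knockin and 17 of 27 in cMyc-Bcl2 WT libraries. At Meg3 these were 18 of 179 values and at Rasgrf1 4 of 42. Values of a block share reads within a library, so these counts are not of independent values. The autosomal share of values between 25 and 75% was not analysed here. In the second H19 block, the 5 cytosines common to all libraries averaged 46.4, 41.7 and 51.2% in MLL-AF9 knockin libraries, and 17.5, 36.6 and 61.2% in MLL-AF9 WT libraries. The same cytosines averaged 34.7 and 51.6% in cMyc-Bcl2 knockin libraries, and 40.6 and 39.0% in cMyc-Bcl2 WT libraries. The MLL-AF9 WT libraries hold both the lowest and the highest value of all 10, and the genotypes overlap in both models. Group means were 46.4% ± 4.78 in MLL-AF9 knockin, 38.4% ± 21.9 in MLL-AF9 WT (SD, n = 3 each), 43.2% ± 12.0 in cMyc-Bcl2 knockin and 39.8% ± 1.12 in cMyc-Bcl2 WT (SD, n = 2 each).

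Set against the 50% of 1 methylated copy, 7 of the 10 libraries lay below and 3 above in this block. Whether the block lies inside the control element was not analysed here, so 50% need not be its level under imprinting. The mean departure was -7.95 percentage points (two-sided exact sign-flip permutation p = 0.0566). The call depended on the handling: it was -9.51 points with reads pooled (exact permutation p = 0.0273), -9.41 with the strands of a CpG joined (exact permutation p = 0.0488), and -10.1 without MLL-AF9 WT replicate 3 (exact permutation p = 0.0156). It was 3.03 points when each library's own H19 cytosines entered, blocks outside the second included (exact permutation p = 0.406). Counting error alone was wide: with reads taken at the deepest cytosine of each strand, about 1 call per fragment, the Wilson 95% intervals of 6 of the 10 libraries held 50%. The intervals of MLL-AF9 WT replicate 1 (5.24 to 36.0%) and cMyc-Bcl2 WT replicate 2 (13.8 to 41.1%) lay lowest. These intervals cover counting error only, and may be too narrow even for that, since reads without molecular identifiers are not independent molecules.

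Knockin minus WT in the second H19 block was 6.68 points in MLL-AF9, over 6 cytosines common to those libraries (exact permutation p = 0.7, where 3 against 3 libraries allow no p below 0.1). It was 3.34 points in cMyc-Bcl2 over 5 cytosines (exact permutation p = 1, where 2 against 2 allow none below 0.333). Without MLL-AF9 WT replicate 1 the MLL-AF9 difference was -3.72 points, and without cMyc-Bcl2 knockin replicate 2 the cMyc-Bcl2 difference was -5.13 points. The mean of both within-model differences was 5.67 points (exact permutation p = 0.45, genotype permuted within model, smallest possible 0.0167). A quasi-binomial fit of reads in 1000-bp windows across the autosomes, with limma-moderated dispersion, gave the window holding this block a knockin difference of 5.63 points over both models, at an adjusted p of 0.656.

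The outer H19 blocks were covered unevenly. In the first block, 3 cytosines averaged 65.1 and 73.7% in cMyc-Bcl2 knockin libraries, and 64.9 and 69.6% in cMyc-Bcl2 WT libraries, and the difference was 2.17 points (exact permutation p = 0.667). Its cytosines varied far more than these means: at position 149761722, 26 of 59 and 47 of 49 reads were methylated in knockin libraries, against 46 of 83 and 43 of 49 in WT libraries. So the spread within a group at this cytosine exceeded the difference between the groups. In the fourth block (chr7:149767047-149767292), 2 cytosines averaged 61.4 and 61.7% in cMyc-Bcl2 knockin libraries, and 52.8 and 53.4% in cMyc-Bcl2 WT libraries, with too few cytosines for a test by the rule used. The groups did not overlap; by pooled reads, 23.5% of the 71497 windows of that model were higher in knockin without overlap. The 2 cytosines went opposite ways: at position 149767047 the level was 87.5 and 84.8% in knockin and 55.6 and 54.5% in WT libraries, and at position 149767093 it was 35.3 and 38.5% in knockin and 50 and 52.2% in WT libraries. In MLL-AF9 these positions gave 61.0, 87.5 and 74.2% in knockin libraries, and 30.3 and 75.0% in WT replicates 1 and 2, while WT replicate 3 had no cytosine with 5 reads.

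**Figure D1:**
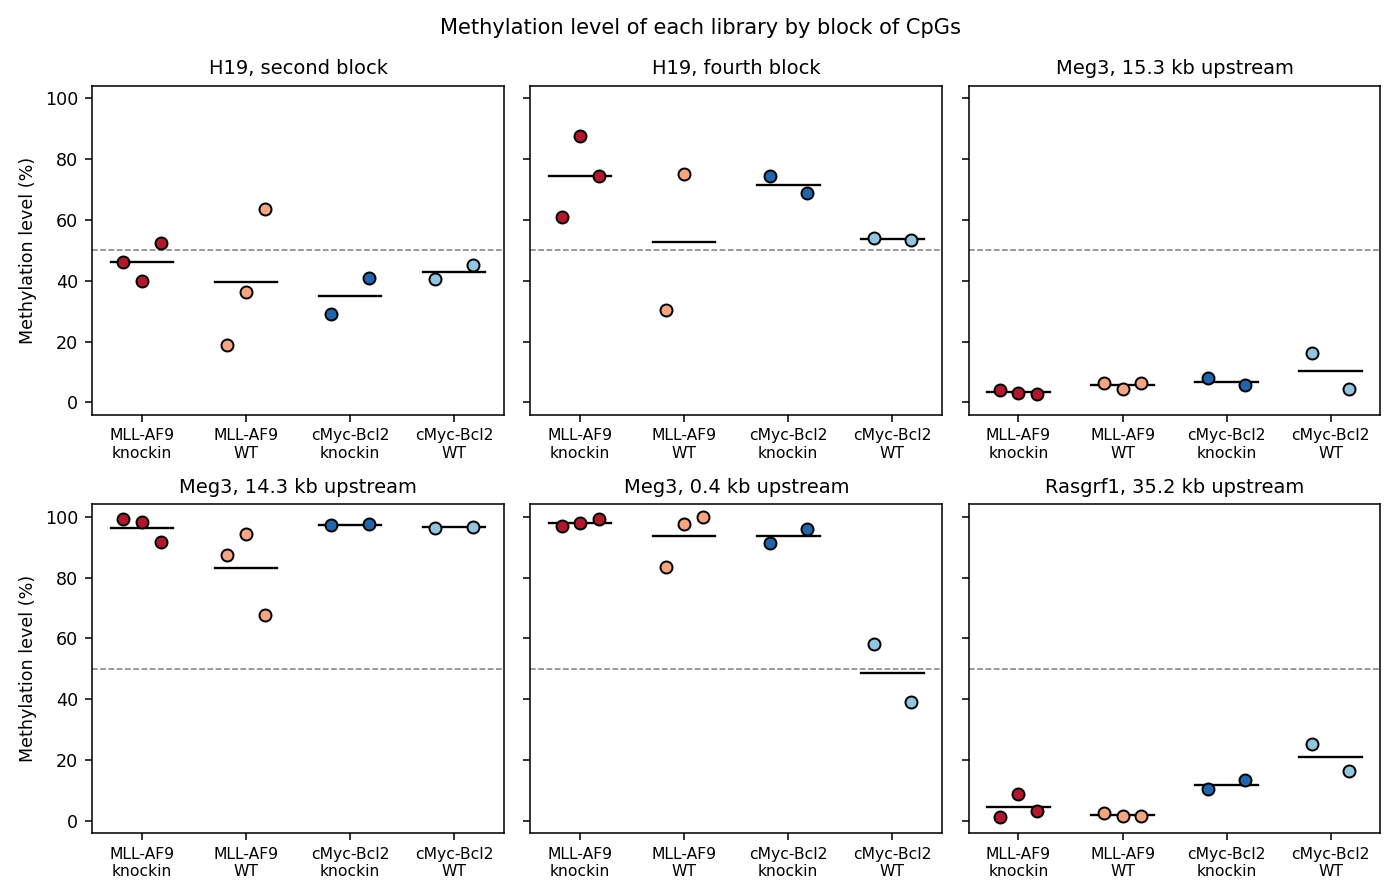
Methylation level (%, vertical axis) in 6 blocks, 1 panel each. Points are libraries, each over its own cytosines with at least 5 reads, bars are group means and the dashed line marks 50%. H19 lies around the line, the Meg3 block 15.3 kb upstream and Rasgrf1 lie below it, and the other Meg3 blocks lie above it except for cMyc-Bcl2 WT replicate 2 at 0.4 kb upstream, at 39.2%.

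The level in the second H19 block differed between strands, and in opposite directions in the leukaemia models. This pattern was noticed after the values were seen. Plus-strand cytosines averaged 41.7 and 71.8% in cMyc-Bcl2 knockin and 49.2 and 55.6% in cMyc-Bcl2 WT libraries, above the minus strand of each library, which averaged 19.3 and 17.8% in knockin and 27.8 and 34.5% in WT. In all 6 MLL-AF9 libraries the plus strand lay below the minus strand, with a difference of -39.7 to -4.55 points. At the CpG of positions 149764109 and 149764110, where both strands of 1 site were read, the plus and minus strands were at 33.3 and 17.6% in cMyc-Bcl2 knockin replicate 1 and at 53.8 and 5.26% in replicate 2. They were at 80.0 and 75.0% in cMyc-Bcl2 WT replicate 2 and at 30.8 and 75.0% in MLL-AF9 WT replicate 3, so the gap was not the same in all libraries of a model. Plus minus minus strand averaged 29.7 points in cMyc-Bcl2 and -15.8 points in MLL-AF9 (n = 4 and 6 libraries), and no p-value is given since the pattern was picked from these same values. The strand means come mostly from different CpGs, so position is mixed with strand. Minus-strand cytosines numbered 4, 4, 2 and 3 in the cMyc-Bcl2 libraries and 3 in each MLL-AF9 library. At the shared CpG, cMyc-Bcl2 WT replicate 1 had no minus-strand value. Over the 5 common cytosines, 3 of the plus and 2 of the minus strand, these offset: cMyc-Bcl2 minus MLL-AF9 was -0.903 points (exact permutation p = 0.95). Taken by strand it was 19.6 points on the plus strand and -31.6 points on the minus strand. The strands are read from different molecules, and what sets them apart was not tested.

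**Figure D2:**
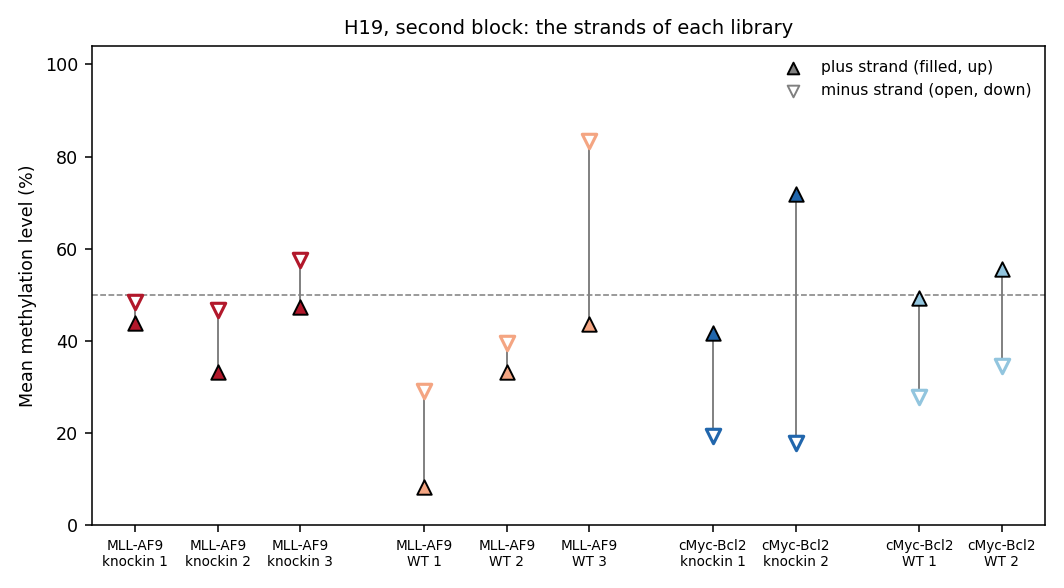
Mean methylation level (%, vertical axis) of the plus-strand cytosines (filled, pointing up) and minus-strand cytosines (open, pointing down) of the second H19 block in each library, each over its own cytosines with at least 5 reads. The filled mark is the upper one in the 4 cMyc-Bcl2 libraries and the lower one in the 6 MLL-AF9 libraries.

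Meg3 held stretches of opposite level within 1 kb of each other, and in cMyc-Bcl2 the block next to its start held the widest gap between knockin and WT of the blocks tested, while in MLL-AF9 that was the block 14.3 kb upstream. The block 15.3 kb upstream was nearly unmethylated: 4 cytosines averaged 3.97, 3.13 and 2.81% in MLL-AF9 knockin libraries, and 6.39, 4.32 and 6.25% in MLL-AF9 WT libraries. The difference of -2.35 points left no overlap between the genotypes (exact permutation p = 0.1, the smallest possible). With reads pooled over windows, 1.43% of the 46593 windows in MLL-AF9 were lower without overlap, and the window holding 3 of these cytosines was not among them: its genotypes overlapped. It was not called either, at -1.10 points and a limma-moderated adjusted p of 0.823. Calls in MLL-AF9, by an adjusted p under 0.05 and at least 10 points, went to 0.0537% of windows as higher and 0.00215% as lower, and to none of the 5 windows in these regions. In cMyc-Bcl2 the cytosines of that block with 5 reads averaged 7.91 and 5.60% in knockin libraries, and 16.3 and 4.46% in WT libraries, which overlap. All 10 Wilson 95% intervals of this block lay below 50%, with 25.8% the highest upper bound, and its highest single value was 40.0%, from 2 of 5 reads in cMyc-Bcl2 WT replicate 1.

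The Meg3 block 14.3 kb upstream was almost fully methylated. Its 8 cytosines averaged 99.3, 98.2 and 91.7% in MLL-AF9 knockin libraries, and 87.4, 94.2 and 67.7% in MLL-AF9 WT libraries. They averaged 97.1 and 97.6% in cMyc-Bcl2 knockin libraries, and 96.4 and 96.5% in cMyc-Bcl2 WT libraries. Every library lay above 50%, by 42.6 points on average (two-sided exact sign-flip permutation p = 0.00195, the smallest that 10 libraries allow), and MLL-AF9 WT replicate 3 lay nearest to it, with a Wilson 95% interval of 40.9 to 79.3%. Whether this block lies inside the control element was not analysed here, so 50% need not be its level under imprinting. Knockin minus WT was 13.3 points in MLL-AF9 (exact permutation p = 0.2) and 0.903 points in cMyc-Bcl2 (exact permutation p = 0.333, the smallest possible). The cMyc-Bcl2 libraries did not overlap between genotypes when cytosines were weighted equally. With reads pooled over the window they did overlap, at -0.336 points, so this window is not among the 23.5% that were higher without overlap by that measure. Without MLL-AF9 WT replicate 3 the MLL-AF9 difference was 5.60 points. Over both models it was 7.10 points (exact permutation p = 0.1). The window fit gave 6.71 points at a limma-moderated adjusted p of 0.300.

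In the Meg3 block 0.4 kb upstream of the start, cMyc-Bcl2 WT stood apart from the other groups. Its 4 cytosines averaged 97.1, 97.8 and 99.1% in MLL-AF9 knockin libraries, and 83.6, 97.6 and 100% in MLL-AF9 WT libraries. They averaged 91.3 and 96.0% in cMyc-Bcl2 knockin libraries, and 58.2 and 39.2% in cMyc-Bcl2 WT libraries. The lowest cMyc-Bcl2 knockin library lay above both cMyc-Bcl2 WT libraries, and each of the 4 cytosines lay between 25 and 75% in both WT libraries (8 of 8 values) and outside that range in both knockin libraries (0 of 8 values). The 4 cytosines lie within 55 bp and share reads, so these values are not independent and stand for 2 libraries of each genotype. The share of autosomal cytosines with this pattern was not analysed here. The Wilson 95% intervals were 81.7 to 96.3% and 89.0 to 99.1% in knockin, and 44.4 to 72.3% and 28.5 to 49.6% in WT. Group means were 93.6% ± 3.28 in cMyc-Bcl2 knockin and 48.7% ± 13.5 in cMyc-Bcl2 WT (SD, n = 2 each), and the WT mean differed from 50% by -1.31 points (exact permutation p = 1, smallest possible 0.5).

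The knockin difference in this block was 45.0 points in cMyc-Bcl2 (exact permutation p = 0.333, the smallest possible) and 4.26 points in MLL-AF9 (exact permutation p = 0.8). Higher without overlap and by at least 10 points in cMyc-Bcl2 were 12.5% of windows, so the absence of overlap alone is common there. In the window fit the cMyc-Bcl2 difference was 44.2 points, with a limma-moderated adjusted p of 0.139. In that model 1 window (0.0014%) was called higher and 0 lower over the autosomes, by an adjusted p under 0.05 and at least 10 points, with 8868 at an unadjusted p under 0.05. In the fit of both models the window differed by 24.4 points, at a limma-moderated adjusted p of 0.0153, and was called, as were 3.68% of 40428 windows in that direction, against 0.0346% called lower. In MLL-AF9 alone this window differed by 4.60 points at a limma-moderated adjusted p of 0.607. The call was lost without cMyc-Bcl2 WT replicate 2 (19.3 points, limma-moderated adjusted p = 0.0883) and with limma on M-values, logit-scaled levels (adjusted p = 0.205). The exact permutation test over both models gave 24.6 points and p = 0.133. The MLL-AF9 effect minus the cMyc-Bcl2 effect was -40.7 points (two-sided exact permutation p = 0.13), and the window's interaction term had a limma-moderated adjusted p of 0.662 (0 windows called over the autosomes, 4435 at an unadjusted p under 0.05, and 1 called by limma on M-values), so a difference between the models' effects did not pass either test. The permutation moved oncogene labels within genotype, which is exact only where the models do not otherwise differ. In this block they did, as given below, so that p is not an exact test of the interaction alone.

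**Figure D3:**
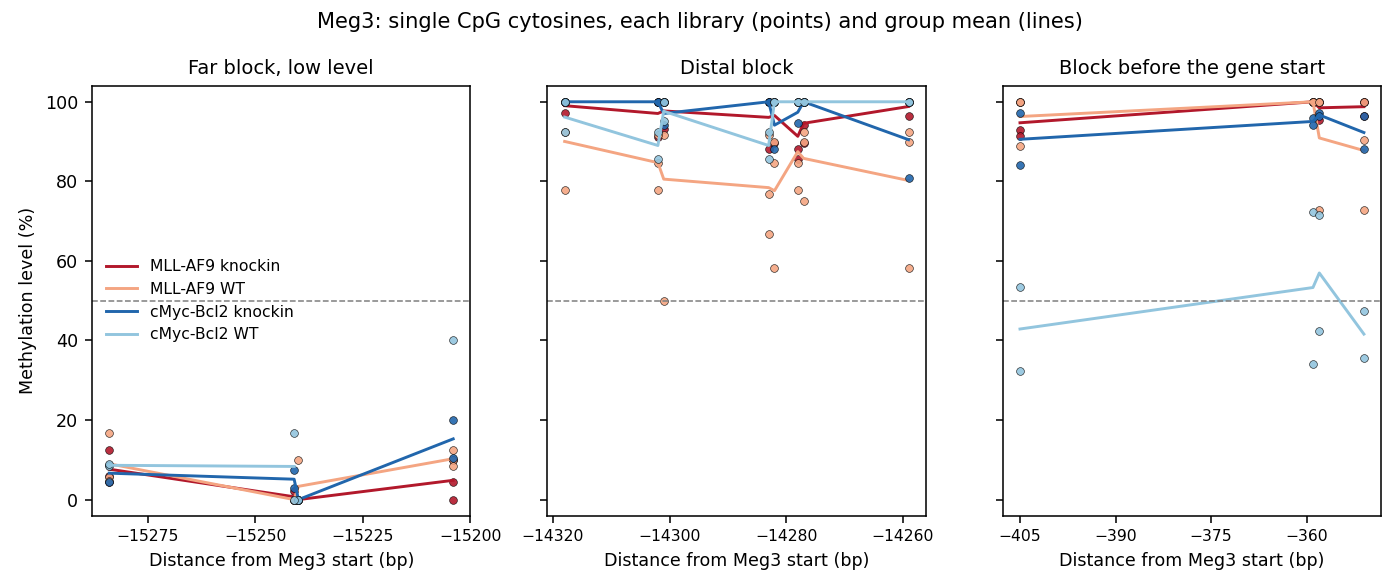
Methylation level (%, vertical axis) of single cytosines in 3 Meg3 blocks against distance from the Meg3 start (bp, negative upstream). Points are libraries and lines join group means where every library of the group has 5 reads. In the right panel the 2 cMyc-Bcl2 WT libraries lie between 32.4 and 72.4%, at each cytosine below all 8 others, of which MLL-AF9 WT replicate 1 is lowest, at 72.7% in 2 cytosines.

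Downstream of the Meg3 start, 0.8 kb into the gene, 4 cytosines (chr12:110779987-110780023) reached 5 reads in 8 libraries and none in all of them. The levels of each library's own cytosines were 90.0 and 80.9% in MLL-AF9 knockin replicates 2 and 3, and 46.7, 90.0 and 68.8% in MLL-AF9 WT libraries. They were 100% in cMyc-Bcl2 knockin replicate 1, and 88.9 and 100% in cMyc-Bcl2 WT libraries. These rest on 5 to 17 reads a cytosine. They cover both strands in MLL-AF9 knockin replicate 3 and MLL-AF9 WT replicate 1, and the plus strand alone in the other libraries. In MLL-AF9 WT replicate 1 the plus strand was at 83.3% and the minus strand at 10%. The cMyc-Bcl2 WT libraries were thus high here, at 0.8 kb downstream, and intermediate 0.4 kb upstream.

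Over the 14 Meg3 cytosines common to all libraries, knockin minus WT was 10.9 points over both models (exact permutation p = 0.0333). Single models gave 7.12 points in MLL-AF9 (exact permutation p = 0.2, over 16 cytosines) and 13.0 points in cMyc-Bcl2 (exact permutation p = 0.333, the smallest possible). The result depended on the handling: it was 2.51 points with a minimum of 10 reads (exact permutation p = 0.517) and 4.71 points with reads pooled (exact permutation p = 0.567). The 10-read value rests on 5 cytosines, none in the block 0.4 kb upstream, where MLL-AF9 WT replicate 3 had 8 to 9 reads. Pooling gives deep cytosines more weight. The low block 15.3 kb upstream had up to 103 and 110 reads a cytosine in cMyc-Bcl2 knockin libraries, and 12 and 102 in cMyc-Bcl2 WT libraries. Without MLL-AF9 knockin replicate 1, MLL-AF9 knockin replicate 2 or MLL-AF9 WT replicate 3 the difference over the 14 cytosines was 10.6, 10.6 and 9.26 points. Each had an exact permutation p of 0.05.

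The Rasgrf1 block was low in every library, and higher in cMyc-Bcl2 than in MLL-AF9. Its 4 cytosines averaged 1.39, 8.94 and 3.24% in MLL-AF9 knockin libraries, and 2.50, 1.79 and 1.56% in MLL-AF9 WT libraries. They averaged 10.4 and 13.4% in cMyc-Bcl2 knockin libraries, and 25.4 and 16.4% in cMyc-Bcl2 WT libraries. The values of MLL-AF9 WT and of MLL-AF9 knockin replicate 1 lie within the 0.910 to 3.20% of mitochondrial calls that read as methylated. Those of MLL-AF9 knockin replicates 2 and 3, the latter by little, and of all cMyc-Bcl2 libraries lie above it. All 10 libraries lay below 50%, by 41.5 points on average (two-sided exact sign-flip permutation p = 0.00195, the smallest possible), and no Wilson 95% interval held 50%. Whether the block lies inside the repeat-bearing control element was not analysed here. The second Rasgrf1 block, 31.5 kb upstream of the start (chr9:89773115-89773153), had 2 cytosines with 6 reads each in cMyc-Bcl2 WT replicate 1, of which 5 and 6 were methylated.

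Between knockin and WT, the difference at Rasgrf1 was 2.57 points for MLL-AF9 (exact permutation p = 0.4) and -8.97 points in cMyc-Bcl2 (exact permutation p = 0.333, the smallest possible). Single libraries moved both: the MLL-AF9 difference was 0.364 points without knockin replicate 2 and 4.14 points without knockin replicate 1, and the cMyc-Bcl2 difference was -4.44 points without WT replicate 1 and -13.5 points without WT replicate 2. With each library's own cytosines, the second block of WT replicate 1 included, the cMyc-Bcl2 difference was -20.0 points. The cMyc-Bcl2 genotypes did not overlap, with knockin lower, as in 17.2% of windows in that direction. The window fit gave -7.87 points in cMyc-Bcl2 at a limma-moderated adjusted p of 0.739. The MLL-AF9 effect minus the cMyc-Bcl2 effect was 11.6 points (two-sided exact permutation p = 0.29). The limit given for this test at Meg3 holds here too, since the models also differed at Rasgrf1. Over both models the difference was -3.20 points (exact permutation p = 0.45).

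**Figure D4:**
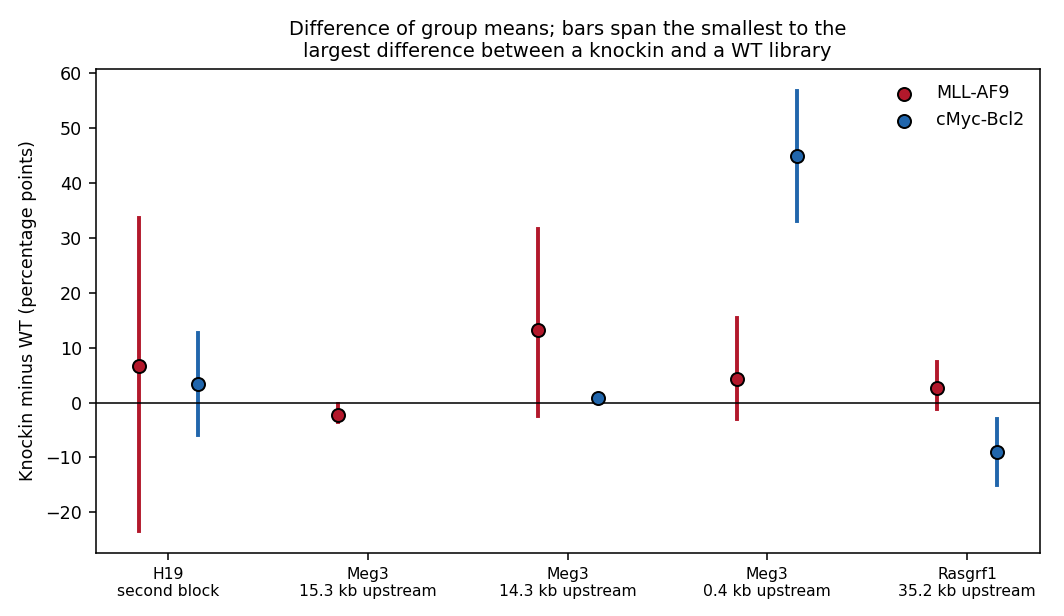
Knockin minus WT (percentage points, vertical axis) in 5 of the tested blocks; cMyc-Bcl2 has no point in the Meg3 block 15.3 kb upstream, where 2 cytosines were common. Points are differences of group means and bars span the smallest to the largest difference between a knockin and a WT library. The cMyc-Bcl2 bar of the Meg3 block 0.4 kb upstream lies far above 0, around its difference of 45.0 points, and the cMyc-Bcl2 bar of Rasgrf1 lies below 0.

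Between the leukaemia models, with genotype held, Rasgrf1 and the Meg3 block 0.4 kb upstream differed and in opposite directions. The c-kit gate and the coverage of the libraries go with the model, as given above, and cannot be told apart from it. Rasgrf1 group means were 20.9% in cMyc-Bcl2 WT and 1.95% in MLL-AF9 WT, and 11.9% in cMyc-Bcl2 knockin and 4.52% in MLL-AF9 knockin. Rasgrf1 levels ranged over 10.4 to 25.4% in cMyc-Bcl2 libraries and 1.39 to 8.94% in MLL-AF9 libraries. They did not overlap, as in 5.14% of windows in that direction within each genotype, and the difference was 13.2 points (exact permutation p = 0.01, the smallest that 100 arrangements allow). In the window fit it was 14.0 points at a limma-moderated adjusted p of 0.0291, a call that 2.88% of the 40428 windows received in that direction. It was lost when any of 6 single libraries was left out: MLL-AF9 knockin replicates 1 and 3, the 3 MLL-AF9 WT libraries and cMyc-Bcl2 knockin replicate 2 (limma-moderated adjusted p = 0.0556 to 0.0801), with differences of 13.2 to 14.2 points. In the Meg3 block the gap between models was wide in WT and small in knockin. Its group means were 48.7% in cMyc-Bcl2 WT and 93.7% in MLL-AF9 WT, and 93.6% in cMyc-Bcl2 knockin and 98.0% in MLL-AF9 knockin. The interaction did not pass, as given above. The block was at 39.2 to 96.0% in cMyc-Bcl2 and 83.6 to 100% in MLL-AF9 libraries. The difference, averaged over the genotypes, was -24.7 points (exact permutation p = 0.01, the smallest possible). Its window was called lower in cMyc-Bcl2, by -24.1 points at a limma-moderated adjusted p of 0.0124, as were 1.55% of windows, and missed the threshold with limma on M-values (adjusted p = 0.0564). Within each genotype the reads pooled over this window did not overlap between the models, as was so for 3.97% of windows in that direction. The Meg3 block 14.3 kb upstream differed by 7.18 points (exact permutation p = 0.24) and the second H19 block by -0.903 points, as given above. The 3 regions and their blocks took 44 exact tests of knockin against WT, of 50%, of the models and of the interaction. Tests within single groups and under alternative settings come on top of these, and no exact p-value is adjusted for their number.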

How the data were processed

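Per the labels' protocols, leukaemic spleen DNA was cut with MspI, size-selected, bisulfite converted and sequenced. The submitters' processing notes name CASAVA, Trim Galore 0.2.2, Bismark 0.7.4, methylKit and build mm9, with settings not given in the sources used here. The deposited files pair methylated with unmethylated read counts per CpG cytosine, and strands were found to be listed one after the other, not joined.

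Levels (percent of reads methylated) used cytosines with at least 5 reads in every library compared, and exact two-sided permutation over libraries. Windows of 1000 bp with at least 3 cytosines were fitted by a quasi-binomial model with limma 3.58.1 dispersion (R 4.3.3, Benjamini-Hochberg over all windows), tested on simulated data. The rest used scipy 1.17.1, pandas 2.3.3 and numpy 2.4.6 in Python 3.11.15. Depth was 14446933 to 46762220 read calls per library.

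The naming rule took all 3 regions, their blocks, and the lowest or highest cytosines of a block; cytosines named for their strand were chosen after their values were seen. Regions, lists and tests were chosen with earlier results of these data known. Alternatives were the read minimum, pooled reads, own cytosines, block gap, window size, limma on M-values and leaving out each library. Strand alternatives, the far Meg3 block left out, the test of the models and the interaction were added after seeing the data. Sex chromosomes were left out.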

Additional observations from a re-analysis of the deposited data

How the results depend on the processing

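Differences are in percentage points, in the order knockin minus WT unless named otherwise. Of 456 alternative values of regions and blocks, 416 kept direction and side of the threshold, and the cause was not tested for those that did not. H19 in cMyc-Bcl2 turned to -0.436 with each library's own cytosines and -3.53 on the minus strand. H19 minus 50 passed with reads pooled (-9.51) and strands joined (-9.41) and turned with own cytosines (3.03). H19 cMyc-Bcl2 minus MLL-AF9 was 0.222 with own cytosines, 19.6 on the plus and -31.6 on the minus strand. Meg3 in cMyc-Bcl2 was -0.565 with reads pooled. Meg3 over both models lost its call at 10 reads (2.51), where the block 0.4 kb upstream drops out, and with reads pooled (4.71). Meg3 cMyc-Bcl2 minus MLL-AF9 was 6.24 at 10 reads and 2.84 with own cytosines, and passed with reads pooled (-18.5, exact permutation p = 0.04). The second H19 block in cMyc-Bcl2 was -7.92 with own cytosines and -1.73 with strands joined, and its interaction was -1.52 on the minus strand. The Meg3 block 14.3 kb upstream in cMyc-Bcl2 was -5.14 at 10 reads, -0.336 with reads pooled, -0.128 with strands joined and -3.99 on the minus strand. On the plus strand that block passed over both models (8.26, exact permutation p = 0.0333), and the block 0.4 kb upstream was -0.788 in MLL-AF9.

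Leaving out 1 library at a time gave -3.72 to 18.6 for H19 in MLL-AF9, -1.54 to 9.57 in cMyc-Bcl2, -10.1 to -5.22 minus 50 and -6.13 to 4.78 between the models. Meg3 over both models gave 9.24 to 12.7. In cMyc-Bcl2 the first H19 block gave -2.14 to 6.48 and the second -5.13 to 11.8, with -5.78 to 16.0 for its interaction. The Meg3 block 14.3 kb upstream gave 3.25 to 9.87 over both models, where it passed without MLL-AF9 WT replicate 2 (exact permutation p = 0.0167). The Meg3 block 0.4 kb upstream gave -0.817 to 7.39 in MLL-AF9 and 19.8 to 29.4 over both models, where it passed without MLL-AF9 WT replicate 3. Among windows, these ranges crossed 0 for H19 in MLL-AF9 (-2.70 to 20.3), in cMyc-Bcl2 (-5.58 to 16.9 from 149761700 and -4.68 to 8.13 from 149764070), between the models (-8.90 to 2.34) and in the interaction (-3.06 to 19.4). For Meg3 windows they did so in MLL-AF9 from 110763922 (-2.26 to 0.0568) and 110778801 (-0.865 to 7.89), and in cMyc-Bcl2 from 110764888 (-0.846 to 0.173).

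Windows called in MLL-AF9 numbered 26, against 14 at 10 reads, 13 with 500-bp windows, 0 with limma on M-values (6508 at an unadjusted p under 0.05) and 0 to 2 without 1 library. In cMyc-Bcl2 the 1 call became 0 with limma on M-values (7440 unadjusted) and without any 1 library. Over both models 1500 became 806 at 10 reads, 26 with limma on M-values and 171 to 1752 without 1 library. Between the models 1790 became 865, 1093 and 1033 to 2192. The interaction had 0 calls, against 4 at 10 reads, 1 with limma on M-values and 0 to 96 without 1 library.

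At 20 reads there were values for H19 and Meg3 in cMyc-Bcl2 and no others. At 10 reads H19 over all libraries, Rasgrf1 outside cMyc-Bcl2 and the Meg3 block 0.4 kb upstream over all libraries gave no value. Depth limits the precision of each level, as the Wilson intervals show. No paired analysis was possible because the labels give no replicate numbers, and the numbers used here follow accession order.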

Other observations

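In the fourth H19 block a plus-strand and a minus-strand cytosine lay apart in cMyc-Bcl2 knockin libraries, and closer together in cMyc-Bcl2 WT libraries. The plus-strand cytosine at chr7:149767047 was methylated in 14 of 16 and 28 of 33 reads of the knockin libraries, and in 10 of 18 and 12 of 22 reads of the WT libraries. The minus-strand cytosine at chr7:149767093 was methylated in 6 of 17 and 10 of 26 reads of the knockin libraries, and in 13 of 26 and 12 of 23 reads of the WT libraries. In MLL-AF9 knockin libraries the plus-strand cytosine was methylated in 7 of 12, 6 of 8 and 26 of 39 reads, against 14 of 22, 13 of 13 and 27 of 33 for the minus-strand cytosine. These cytosines belong to different CpGs. Another minus-strand cytosine of the block, at chr7:149767292, was methylated in 8 of 8 and 5 of 6 reads of the cMyc-Bcl2 knockin libraries, near the plus-strand level, so the gap did not hold for every cytosine of the strand. In the first H19 block, cMyc-Bcl2 knockin replicate 2 had its minus strand at 100% (6 reads) and its plus strand at 73.7%. This was noticed after the values were seen and was not tested.

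In the first H19 block, neighbouring cytosines read from the same strand at equal depth gave widely different levels in 1 of 4 cMyc-Bcl2 libraries. In cMyc-Bcl2 knockin replicate 1, 56 of 59 reads were methylated at chr7:149761700 and 26 of 59 at chr7:149761722. The pair had 45 of 49 and 47 of 49 methylated reads in knockin replicate 2, 50 of 83 and 46 of 83 in WT replicate 1, and 47 of 49 and 43 of 49 in WT replicate 2.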
